A study of Mus musculus with 19 samples.

Results

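The genes of the calcineurin and NFAT pathway described here were Nfatc1, Nfatc2, Nfatc3, Nfatc4, Nfat5, Rcan1, Ppp3ca, Ppp3cb and Ppp3r1, measured in EDL muscle (extensor digitorum longus), which lies in the hind leg and holds mainly fast fibres. All probe sets annotated to only 1 of these 9 genes were taken, which gave 35 of the 45037 probe sets other than controls; 1 further probe set, shared by Ppp3r1 and another gene, was not used. HSALR mice (transgenic HSALR line 20 b) were compared with wild-type mice, both of the FVB strain and aged 19 weeks. There were 10 HSALR and 9 wild-type samples, with 1 Affymetrix array each. The HSALR transgene carries human skeletal actin with a long CTG repeat, is driven by the actin promoter in muscle fibres and serves as a model of myotonic dystrophy, here from 1 transgenic line. Whether each sample is a separate animal is not in the labels, so p-values measure no more than the spread among these samples, which could be technical. These genes were selected on measured values of this same comparison, among them the higher Nfatc2 signal in HSALR. The differences between HSALR and wild type given below are therefore descriptions, and nothing is rested on their adjusted p.

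Calcineurin is a protein phosphatase that calcium and calmodulin switch on. It consists of a catalytic subunit, encoded by Ppp3ca, Ppp3cb or Ppp3cc, and a calcium-binding regulatory subunit, encoded by Ppp3r1. Calcineurin removes phosphates from the transcription factors NFATc1 to NFATc4, which then enter the nucleus, and kinases such as those of the DYRK, GSK3 and casein kinase families put the phosphates back. In skeletal muscle this pathway is known for its part in slow fibre gene expression and in the fusion and growth of muscle cells, and Rcan1 encodes an inhibitor of calcineurin that is itself an NFAT target.

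RefSeq promoter windows were matched to 7 of the 9 genes, with 10 annotated starts in all, each window running from 250 bases before to 50 bases after the start (GRCm38.p6). Those of Nfatc2, which of the 9 genes had the largest difference between groups, and of Rcan1, the known NFAT target, are shown. Each is written 5′ to 3′ on the strand of the gene, with capitals for GGAAA, the core of NFAT sites, on either strand (TTTCC on the other) and for TGANTCA, the AP-1 motif, which overlapped no GGAAA match.
Nfatc2, first start (chr2:168601608-168601907, minus strand): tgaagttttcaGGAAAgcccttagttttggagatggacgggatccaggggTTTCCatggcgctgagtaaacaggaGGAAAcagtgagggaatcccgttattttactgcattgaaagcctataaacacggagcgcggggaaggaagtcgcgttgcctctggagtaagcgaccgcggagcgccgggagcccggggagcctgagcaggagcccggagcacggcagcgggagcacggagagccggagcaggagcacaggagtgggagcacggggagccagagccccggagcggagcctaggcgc
Nfatc2, second start (chr2:168590316-168590615, minus strand): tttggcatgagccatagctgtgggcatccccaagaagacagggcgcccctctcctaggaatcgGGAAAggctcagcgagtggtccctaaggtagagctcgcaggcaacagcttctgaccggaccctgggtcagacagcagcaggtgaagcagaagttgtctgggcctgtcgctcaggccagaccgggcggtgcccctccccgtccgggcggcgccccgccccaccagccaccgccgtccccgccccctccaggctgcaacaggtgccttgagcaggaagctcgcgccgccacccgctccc
Rcan1, first start (chr16:92466120-92466419, minus strand): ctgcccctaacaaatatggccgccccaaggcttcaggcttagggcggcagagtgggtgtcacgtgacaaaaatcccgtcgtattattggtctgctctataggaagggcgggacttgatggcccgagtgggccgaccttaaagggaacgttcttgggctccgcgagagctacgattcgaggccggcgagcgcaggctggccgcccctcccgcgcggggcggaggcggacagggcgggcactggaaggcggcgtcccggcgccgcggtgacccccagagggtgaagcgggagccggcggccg
Rcan1, second start (chr16:92400029-92400328, minus strand): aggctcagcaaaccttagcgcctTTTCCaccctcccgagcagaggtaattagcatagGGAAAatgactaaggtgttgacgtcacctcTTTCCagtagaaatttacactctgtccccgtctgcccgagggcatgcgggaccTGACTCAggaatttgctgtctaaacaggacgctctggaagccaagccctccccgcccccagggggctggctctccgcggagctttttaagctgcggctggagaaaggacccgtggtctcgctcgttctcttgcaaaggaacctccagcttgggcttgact

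The upstream Nfatc2 window held 3 GGAAA matches, which began at positions -239, -200 and -175 from the annotated start, and the other Nfatc2 window held 1, at -187. Rcan1 had 0 matches at its first start. At its second start it had 3, at -227, -193 and -163, with the AP-1 motif at -110. Among the other windows, Ppp3cb had 4 matches, Nfatc4 had 3, Nfat5 had 2, and Nfatc3 had 1 and 0 at its annotated starts, against 0 in Ppp3r1. Such short motifs are common: 61.3% of all 32851 windows of 300 bases in the table held GGAAA, 9.4% held it 3 or more times, 7.8% held TGANTCA and 5.0% held both. The probe sets were not assigned to a start, so these matches are a description of the sequence only.

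The arrays bore signals of fast muscle, and some samples stood apart. All 8 fast muscle markers lay above the filter, which kept probe sets whose mean log2 signal was at or above the median (6.09), and their summed signal was 91754 to 110873 in HSALR, against 99116 to 114107 in wild type. The 9 slow muscle markers varied much more, from 3273 to 18065 in HSALR and from 3123 to 32813 in wild type. HSALR replicates 9 and 10 had the highest summed signal of 13 macrophage markers, 22625 and 25169, with at most 10825 in any further HSALR sample and 4603 to 7742 in wild type. Their fibroblast markers summed to 59719 and 61245, with 16601 to 37989 in the other HSALR samples and 19804 to 32945 in wild type. HSALR replicates 9 and 10 were also the pair most alike across probe sets (Spearman correlation 0.978). Array medians ran from 39.7 to 71.9 and differed between samples, so quantile normalization was run beside the deposited scaling.

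Nfatc2, an NFAT factor that in mice is known to act in muscle growth through cell fusion, gave a higher signal in HSALR muscle at 3 of its 4 probe sets above the filter and not at the other. Probe set 1426032_at had a lowest, median and highest signal of 288, 429 and 524 in HSALR, against 134.5, 202 and 262 in wild type. The groups did not overlap, with all 10 HSALR samples above the wild-type maximum, and the highest HSALR signals were those of replicates 1, 4 and 5. The difference was 2.04-fold (log2 fold 1.03 ± 0.14, SE, n = 10 against 9, limma adjusted p = 5.87e-05 over all probe sets). Folds are on the scale of log2(signal + 16), which understates the change of dim probe sets.

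Probe set 1439205_at of Nfatc2 ran from 158 through a median of 229 to 316 in HSALR, against 112, 138 and 189 in wild type. Of the HSALR samples 7 exceeded the wild-type maximum, and the groups overlapped between 158 and 189 (log2 fold 0.65 ± 0.13, limma adjusted p = 0.00368). The dimmer 1440426_at had signals of 48.7, 63.0 and 97.2 in HSALR, against 33.5, 40.6 and 54.2 in wild type, with 9 HSALR samples above all wild-type samples (log2 fold 0.56 ± 0.11, limma adjusted p = 0.00414). Here the highest HSALR signals were those of replicates 4, 8 and 10, so the order of the samples was not the same as at 1426032_at.

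The fourth Nfatc2 probe set above the filter, 1425901_at, did not share this pattern. It had 92.5, 100.1 and 128 in HSALR, against 77.1, 114 and 161 in wild type, and 0 HSALR samples lay outside the wild-type range on either side (log2 fold -0.14 ± 0.10, limma adjusted p = 0.473). Of the probe sets below the filter, 1426031_a_at had a median of 43.6 in HSALR, with 5 samples above all of wild type, against a median of 21.5 in wild type. Its HSALR signals spanned 6.93 to 88.4, and those of 1425990_a_at, 16.2 to 39.2 in HSALR against 2.31 to 47.3 in wild type, overlapped throughout. The log2 3'/5' ratio of control transcripts, a sign of RNA quality, was -0.167 to -0.035 in HSALR, against -0.149 to 0.02 in wild type, and its part in the spread between probe sets of 1 gene was not tested. The annotation used here does not place the probe sets on the transcript.

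**Figure D1:**
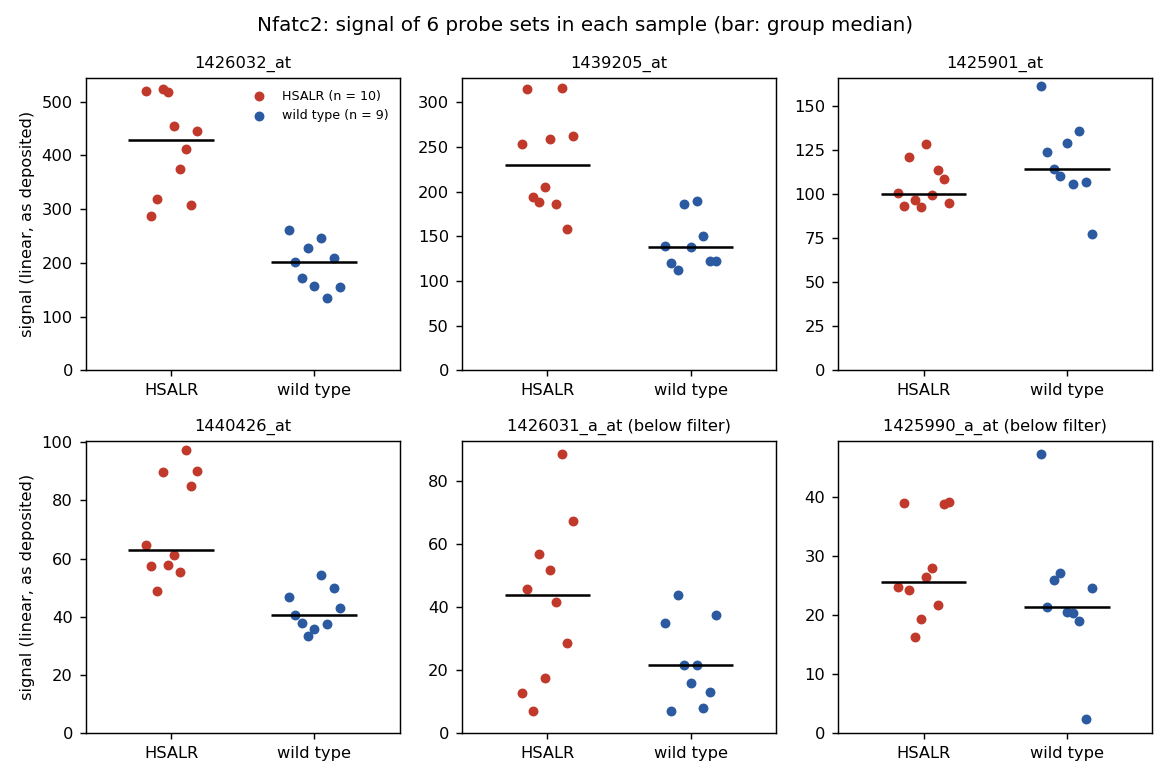
Signal (linear, as deposited) of the 6 Nfatc2 probe sets, 1 panel each, with 1 point per sample (10 HSALR on the left, 9 wild type on the right) and a bar at the group median. At 1426032_at every HSALR sample, from 288 to 524, lies above the highest wild-type sample at 262, whereas at 1425901_at the HSALR samples lie within the wild-type range.

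The higher signal at Nfatc2 1426032_at was seen whichever sample was left out. Over 31 alternatives, 19 of which left out 1 sample, the log2 fold of 1426032_at ranged from 0.88 to 1.08, and each of them gave a limma adjusted p of 0.000499 or less. Without HSALR replicates 9 and 10, the samples with high macrophage and fibroblast markers, the log2 fold was 1.06. Of 11 lymphocyte markers, 9 lay below the filter, and of these the T cell genes Cd3d and Cd4 were under a signal of 16 in every sample. The T cell gene Cd8a lay above the filter, at 86.9 to 184 in HSALR and 91.2 to 168 in wild type. So did the B cell gene Ms4a1, at 25.6 to 97.1 in HSALR and 46.3 to 89.3 in wild type. Neither was called. The lymphocyte markers summed to 215 to 483 in HSALR, against 241 to 419 in wild type. Of 9 satellite cell and myoblast markers 5 lay above the filter. Among those Myog, a myogenic factor, was the 1 called higher, with a median of 473 in HSALR, against 214 in wild type, and 0 were called lower. In endothelial markers 0 of 8 were called, with sums of 2366 to 3822 in HSALR and 2545 to 3930 in wild type. Called higher in limma, of the markers above the filter, were also 2 of 12 macrophage markers (Cd68 and Lgals3) and 1 of 8 fibroblast markers (Pdgfra). So were 1 of 6 smooth muscle and pericyte markers (Tagln) and 2 of 3 adipocyte markers (Adipoq and Retn), and 0 of any of these lists were called lower. Of all genes tested 3.11% were called higher and 2.31% lower. The part of cell makeup in the Nfatc2 signal was not tested, and in whole muscle more cells of a type and more RNA per cell cannot be told apart.

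Nfatc1, the NFAT factor best known from slow fibre and osteoclast gene control, had no call, and 0 of its 4 probe sets above the filter passed. Probe set 1428479_at had signals of 556, 756 and 848 in HSALR, against 584, 652 and 803 in wild type (log2 fold 0.13 ± 0.09). At 1417621_at they were 194, 299 and 487 in HSALR, against 231, 268 and 353 in wild type. Both had groups that overlapped over most of their range. The log2 fold of 1417621_at was 0.13 ± 0.15 with all samples and -0.01 without HSALR replicates 9 and 10. The dimmer 1425761_a_at reached 120 in HSALR, with 5 samples above the wild-type maximum of 88.4, and did not pass (0.31 ± 0.15 on the log2 scale, limma adjusted p = 0.231). Probe sets 1447085_s_at and 1447084_at, the second of them below the filter, had 0 HSALR samples outside the wild-type range.

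Nfatc3, which is broadly expressed and active in muscle, had log2 folds of -0.01 ± 0.10 at 1419976_s_at and -0.25 ± 0.11 at 1452497_a_at. The second had signals of 60.0, 86.4 and 112 in HSALR, against 83.1, 100.3 and 140 in wild type, with 5 HSALR samples below all of wild type. It did not pass as deposited (limma adjusted p = 0.182), but with quantile-normalized values the log2 fold of -0.29 passed (limma adjusted p = 0.034).

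Nfatc4, known for roles in heart and nerve cells, differed by 0.28 ± 0.16 on the log2 scale at 1423380_s_at (limma adjusted p = 0.337). Its signals were 136, 197 and 340 in HSALR, against 109, 184 and 221 in wild type. The only HSALR samples above the wild-type maximum were replicates 9 and 10, at 320 and 340, the pair with the high macrophage and fibroblast markers. Without them the log2 fold was 0.12. The part of either cell type in the Nfatc4 signal was not tested. Probe set 1454369_a_at scattered from 21.7 to 120 in HSALR and from 30.4 to 119.5 in wild type. Its log2 fold was 0.33 ± 0.25 (limma adjusted p = 0.48), 0.67 with array weights, where it passed (limma adjusted p = 0.0458), and 0.09 with the 3'/5' ratio in the fit. The other probe sets, 1423379_at and 1432821_at, lay below the filter with no sample of either group above 25.9.

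Nfat5, which answers salt and osmotic stress and is not controlled by calcineurin, gave log2 folds of 0.07 ± 0.13, 0.16 ± 0.12 and 0.05 ± 0.12 at its 3 probe sets above the filter. At the brightest, 1438999_a_at, signals were 178, 279 and 368 in HSALR, against 222, 262 and 348 in wild type, so the HSALR samples were spread on both sides of the wild-type range. The other 3 Nfat5 probe sets were below the filter, and their signals reached 48.6 in HSALR and 60.6 in wild type.

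**Figure D2:**
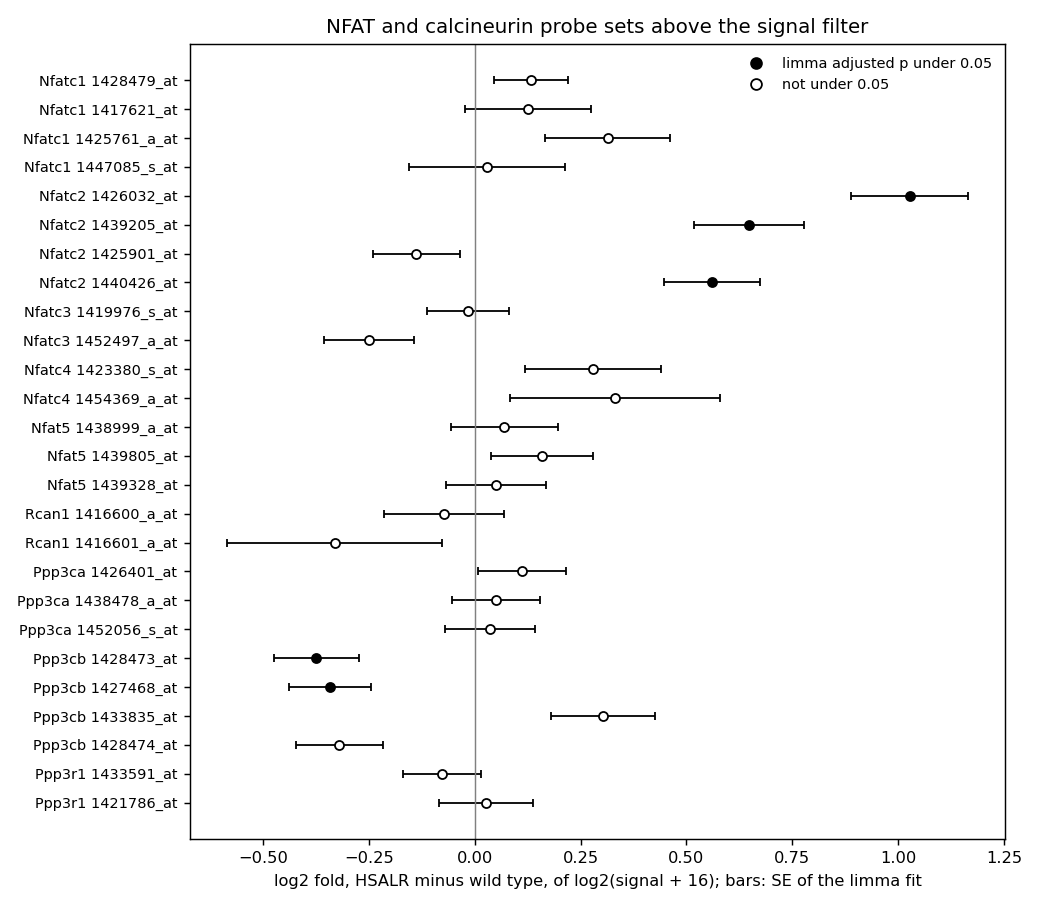
Log2 fold of HSALR minus wild type, on the scale of log2(signal + 16), for the 26 probe sets above the filter, by gene, with bars for the SE of the limma fit and filled points for an adjusted p under 0.05. The Nfatc2 probe sets spread from -0.14 to 1.03 and those of Ppp3cb from -0.37 to 0.30, while those of Ppp3ca lie between 0.04 and 0.11.

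Ppp3cb, which encodes the beta catalytic subunit, was called lower in HSALR by limma at 2 of its 4 probe sets above the filter. The others did not pass, with log2 folds of -0.32 at 1428474_at and 0.30 at 1433835_at. The brightest, 1428473_at, had 2890, 3508 and 4551 in HSALR, against 3883, 4776 and 5608 in wild type. Of the HSALR samples 7 lay below all of wild type, and replicates 4, 6 and 8 overlapped with it. The log2 fold was -0.37 ± 0.10 (limma adjusted p = 0.0294).

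Probe set 1427468_at of Ppp3cb had 1032, 1257 and 1486 in HSALR, against 1256, 1569 and 1934 in wild type, with 5 HSALR samples below all of wild type (log2 fold -0.34 ± 0.10, limma adjusted p = 0.0414). At 1428474_at the signals were 197, 265 and 369 in HSALR, against 289, 325 and 387 in wild type, with 6 HSALR samples below the wild-type range (log2 fold -0.32 ± 0.10, limma adjusted p = 0.0737). The remaining probe set above the filter, 1433835_at, turned the other way, with 217, 317 and 479 in HSALR, against 183, 269 and 322 in wild type (log2 fold 0.30 ± 0.12, limma adjusted p = 0.163). With the 3'/5' ratio in the fit it passed, at 0.47 (limma adjusted p = 0.0233).

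These Ppp3cb calls lay near the threshold. Without HSALR replicates 9 and 10 the log2 folds of 1428473_at and 1427468_at were -0.36 and -0.32, with limma adjusted p of 0.0778 and 0.116. After quantile normalization the log2 folds were -0.46 and -0.40, and 1428474_at, at -0.38, passed as well (limma adjusted p = 0.0158). When 1 sample was left out, the call of 1428473_at was lost in 5 of 19 fits, those without HSALR replicate 9 or wild-type replicate 6, 7, 8 or 9 (limma adjusted p = 0.0538 to 0.0606). That of 1427468_at was lost in 13 of 19 (limma adjusted p = 0.053 to 0.0842) and was kept without HSALR replicate 4, 5, 6 or 8 or wild-type replicate 4 or 5. The direction was the same in all 31 alternatives for each of the 4 probe sets. The last Ppp3cb probe set, 1446149_at, lay below the filter, with no sample above 25.8.

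**Figure D3:**
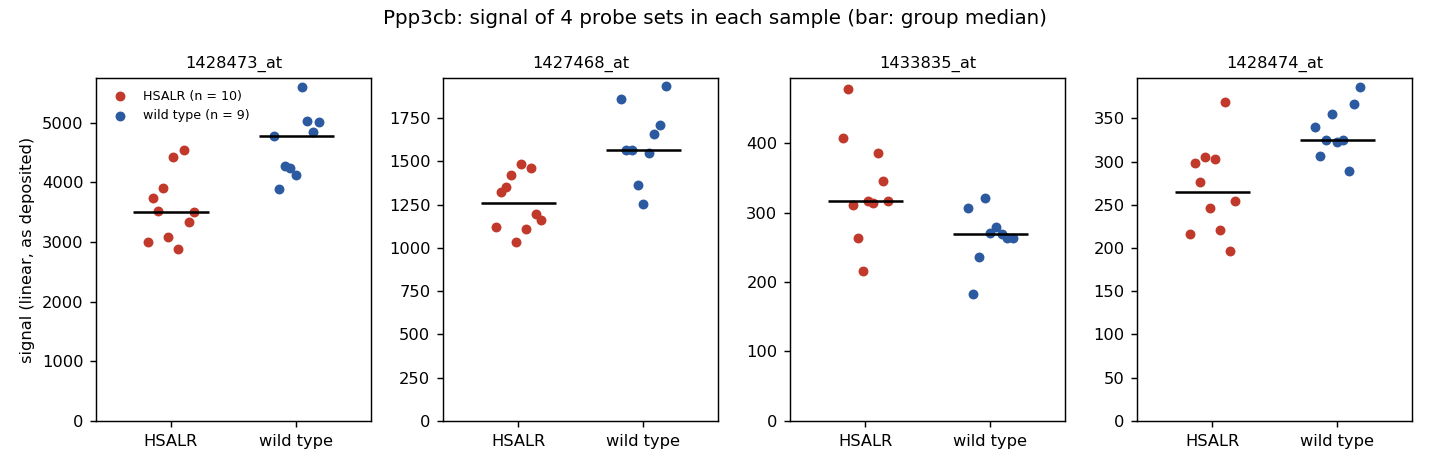
Signal (linear, as deposited) of the 4 Ppp3cb probe sets above the filter, with 1 point per sample (10 HSALR on the left, 9 wild type on the right) and a bar at the group median. Medians are lower in HSALR at 1428473_at (3508 against 4776), 1427468_at (1257 against 1569) and 1428474_at (265 against 325), and higher at 1433835_at (317 against 269).

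Ppp3ca, the alpha catalytic subunit, had 3 probe sets with close values. At 1426401_at signals were 1199, 1724 and 2134 in HSALR, against 1342, 1523 and 1837 in wild type, with 4 HSALR samples above and 1 below the wild-type range. The log2 folds were 0.11 ± 0.10, 0.05 ± 0.10 and 0.04 ± 0.11, and the 2 smaller took the opposite sign after quantile normalization (-0.0029 and -0.016). Ppp3cc, the gamma catalytic subunit gene, is not among the 9 genes and is named after its values were seen. It had mean log2 signals of 7.28 in HSALR and 7.59 in wild type at its brightest probe set, with 3 HSALR samples below all of wild type. Its difference of -0.31 ± 0.12 did not pass as deposited (limma adjusted p = 0.155), and that of -0.37 with quantile-normalized values did (limma adjusted p = 0.029). Ppp3r1, the regulatory subunit, had 1596, 2040 and 2487 in HSALR at 1433591_at, against 1787, 2105 and 2508 in wild type (log2 fold -0.08 ± 0.09). Its dimmer probe set 1421786_at had a log2 fold of 0.03 ± 0.11, which also turned after quantile normalization (-0.02).

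Rcan1, the calcineurin inhibitor and NFAT target whose second annotated start held 3 GGAAA matches, varied widely within both groups. Probe set 1416600_a_at had 814, 1148 and 1652 in HSALR, against 820, 1210 and 1789 in wild type (log2 fold -0.07 ± 0.14, limma adjusted p = 0.821). At 1416601_a_at the signals were 90.9, 144 and 264 in HSALR, against 53.6, 250 and 361 in wild type (log2 fold -0.33 ± 0.25, limma adjusted p = 0.494). At the second probe set all HSALR samples fell inside the wild-type range, whose lowest signal, in wild-type replicate 6, was also the lowest of all 19 samples. The SD over log2 values there was 0.48 in HSALR and 0.74 in wild type.

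**Figure D4:**
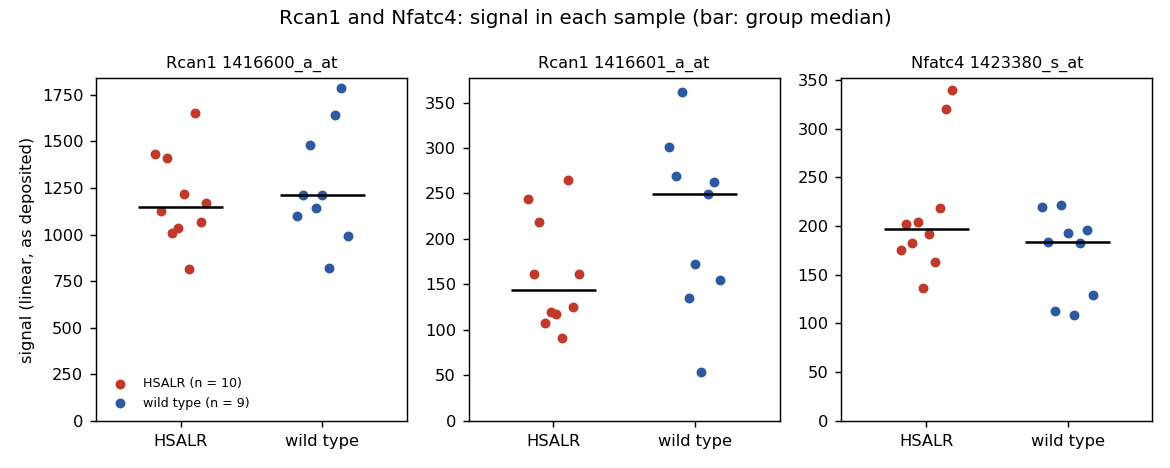
Signal (linear, as deposited) of both Rcan1 probe sets and of Nfatc4 1423380_s_at, with 1 point per sample (10 HSALR on the left, 9 wild type on the right) and a bar at the group median. Rcan1 1416601_a_at spans 53.6 to 361 in wild type, and at Nfatc4 the HSALR samples at 320 and 340 stand above all others.

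In all, 26 of the 35 probe sets passed the filter on dim signals, with between 2 and 4 for each gene. Of these 3 were called higher in HSALR, all of Nfatc2, and 2 lower, both of Ppp3cb, by limma at a false discovery rate of 0.05. Over all 22519 probe sets tested, 2.86% were called higher and 2.2% lower. Only Nfatc2 1426032_at had every HSALR sample above all of wild type, as did 0.36% of all probe sets tested, and 0 had every HSALR sample below, as did 0.289%. The members were chosen with this comparison known, so these shares are not set against each other. With quantile normalization 3 members were called higher and 4 lower, where 6.59% and 8.24% of all probe sets were. Without HSALR replicates 9 and 10 these were 3 and 0 members, beside 1.91% and 1.78%, and with no filter 3 and 0 of 35, beside 1.24% and 0.866%.

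Among the other genes of the pathway, 1 was called. From a list of 36 inhibitors, anchoring and calcineurin-binding proteins, calmodulins, NFAT kinases and other substrates, 30 had a probe set of their own and 26 lay above the filter, read through the brightest probe set. Of these 0 were called higher and 1 lower by limma (2 and 6 by an unadjusted p under 0.05), while 3.11% of all 11533 genes tested were called higher and 2.31% lower. The median log2 fold of the list was 0.03, and that of all genes 0.05. The gene called was Dyrk2, a kinase that phosphorylates NFAT in human cells, with mean log2 signals of 9.69 in HSALR and 10.35 in wild type. Its log2 fold was -0.66 ± 0.15 (limma adjusted p = 0.00995), with 7 of 10 HSALR samples below all of wild type. Of its 3 probe sets above the filter, 1436918_at also passed, at -0.72 ± 0.14 (limma adjusted p = 0.00209), and 1456502_at did not, at -0.45 ± 0.18 (limma adjusted p = 0.143). The brightest passed in all 31 alternatives, with log2 folds of -0.73 to -0.59.

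Other kinases and partners of calcineurin did not pass at their brightest probe set with the scaling as deposited. Gsk3b, a kinase that returns NFAT to the cytoplasm, had 7 HSALR samples above all of wild type and differed by 0.25 ± 0.09 on the log2 scale (limma adjusted p = 0.0961). With quantile-normalized values its log2 fold of 0.19 passed (limma adjusted p = 0.025). Gsk3a and Csnk1a1, also kinases of the list, are named after their values were seen. Gsk3a went the other way, at -0.16 ± 0.08 (limma adjusted p = 0.234), with 6 HSALR samples below all of wild type. Csnk1a1 differed by 0.30 ± 0.10 (limma adjusted p = 0.081), with 8 HSALR samples above all of wild type. After quantile normalization both passed, at -0.23 and 0.24 (limma adjusted p = 0.02 and 0.0119). Rcan2, a relative of Rcan1, had a log2 fold of 0.05 ± 0.10, which turned to -0.0047 after quantile normalization. Myoz1, a calcineurin-binding protein of the Z-disc, had -0.03 ± 0.08. Homer1, a scaffold of calcium channels, named here after its values were seen, did not pass at its brightest probe set (log2 fold -0.28 ± 0.11, limma adjusted p = 0.138). After quantile normalization Homer1 passed there, at -0.34 (limma adjusted p = 0.029). As deposited, 3 of its 5 probe sets above the filter were called lower in HSALR by limma. These were 1436387_at, 1439662_at and 1421768_a_at, with log2 folds of -0.74 ± 0.13, -0.52 ± 0.12 and -0.37 ± 0.11. The remaining one, 1425710_a_at, had -0.16 ± 0.12 and did not pass. Fkbp8, a relative of the FK506-binding proteins, likewise named after its values were seen, had the lowest fold of the list but a wide error (-0.90 ± 0.39, limma adjusted p = 0.192). After quantile normalization 2 genes of the list were higher and 4 lower, where 7.08% and 8.39% of all genes tested were. Without HSALR replicates 9 and 10, 0 were higher and 1 lower, where 2.09% and 1.84% of all genes were. The calmodulin genes were not analysed here.

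**Figure D5:**
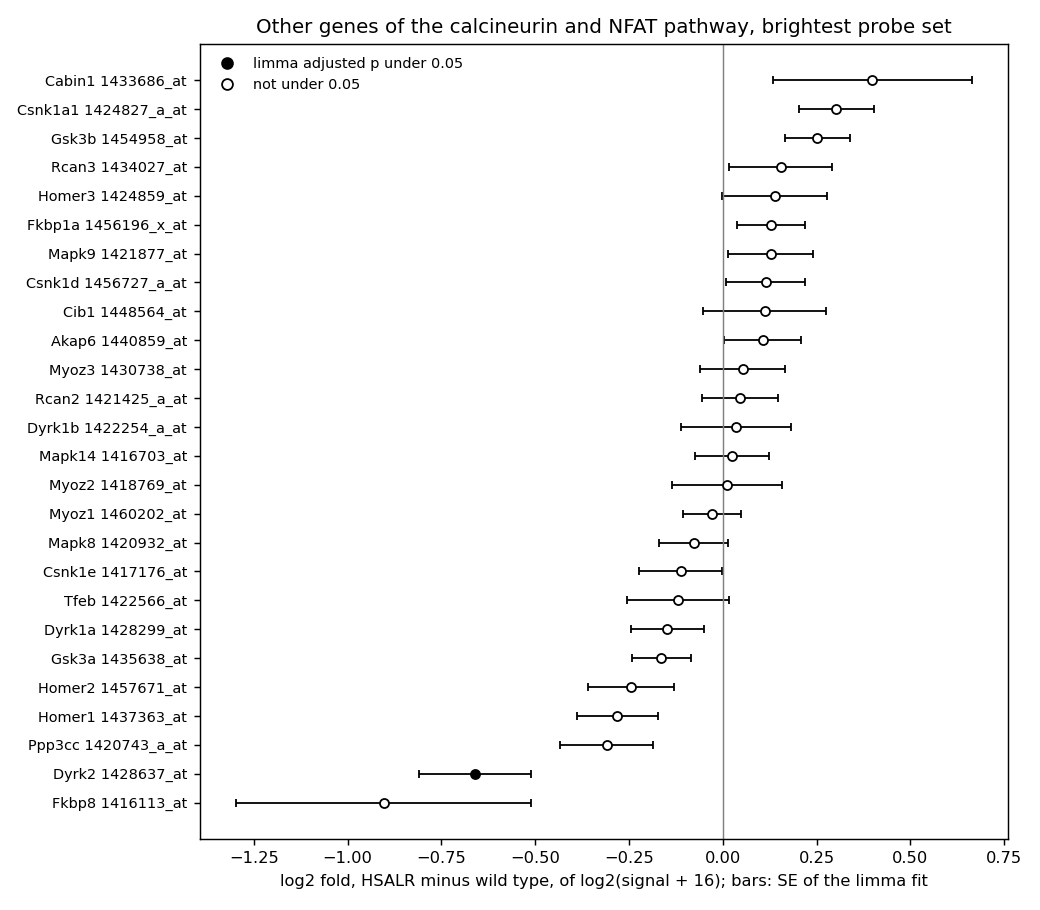
Log2 fold of HSALR minus wild type, on the scale of log2(signal + 16), for 26 other genes of the pathway at their brightest probe set, in order of fold, with bars for the SE of the limma fit. Dyrk2, at -0.66, is the only filled point (adjusted p under 0.05).

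Variation within each group was also set against slow fibre and macrophage markers, a measure that does not use the difference between the groups. After quantile normalization the slow marker mean fell into separate levels, with HSALR replicates 4, 9 and 10 and wild-type replicates 1 and 7 low, and the macrophage mean set HSALR replicates 9 and 10 apart. Correlations were therefore taken within the larger set of samples, of 7, 7 and 8 samples, and over all 9 wild-type samples for the macrophage markers. This choice was made after the data were seen. Of 36 relations (9 genes, both marker means, both groups) 0 passed adjustment in an exact permutation test of Pearson's r, and 0 had an unadjusted p under 0.05. For Spearman's rho 0 passed and 2 had an unadjusted p under 0.05. Nfatc1 had an r of 0.28 with the slow markers in HSALR (rho 0.29, exact permutation p = 0.539 and 0.556, adjusted p = 0.904 and 0.87) and of -0.11 in wild type (rho -0.32, exact permutation p = 0.802 and 0.498, adjusted p = 0.999 and 0.814). Without the 2 samples farthest from the median these were -0.47 and 0.76. Over all samples of each group, as first planned, 0 of 36 relations passed by either measure. Of these, 4 had an unadjusted p under 0.05 by Pearson's r and 2 by Spearman's rho. The smallest p was that of Ppp3cb with the macrophage markers in HSALR (r -0.82, rho -0.83, permutation p = 0.00402 and 0.00492, adjusted p = 0.145 and 0.177). Without HSALR replicates 9 and 10 that r was -0.44.

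The genes whose variation within groups was most like that of Nfatc2 1426032_at, among 11532 other genes over all 19 samples, were Vps36, Zbtb4, Sdf2, Ranbp10 and Tsnax. Their correlations of deviations from the group means were 0.75 to 0.79. Within HSALR alone these were 0.82 to 0.92, and within wild type alone 0.35 to 0.61. For Nfatc1 1428479_at the nearest was Tsr3, an enzyme of ribosome formation, at 0.84 (0.86 in HSALR alone and 0.76 in wild type alone), followed by Bfsp2, Eya1, a transcriptional cofactor of muscle, Ccdc71 and Gm17546 at 0.75 to 0.77. For Rcan1 1416600_a_at it was Mad2l1bp, at 0.78 (0.56 in HSALR alone and 0.93 in wild type alone), before Cenpm, 9530082P21Rik, Map1b and Fam222b at 0.70 to 0.74. These values are the highest of many and were not tested.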

How the data were processed

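RNA of 10 HSALR and 9 wild-type EDL samples was labelled with biotin and hybridised to 1-colour arrays, as the labels' protocols state. The authors deposited a linear signal intensity for each of 45101 probe sets. Per the submitters' processing notes GCOS 1.4 was used; its algorithm and scaling target were not stated there. For arrays no molecule count is known, and the number of arrays limits the precision.

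Values were used as log2(value + 16). Controls (64 probe sets) were dropped. The 22519 probe sets whose mean log2 value was at or above the median (6.09) were tested with lmFit and eBayes of limma 3.58.1 (R 4.3.3, 2-sided, Benjamini-Hochberg over all of them, false discovery rate 0.05). Errors of folds are standard errors of that fit. Gene symbols came from the platform annotation, updated through Entrez identifiers. Promoter windows are RefSeq's (GRCm38.p6). Members and lists were chosen with earlier results of these data known. By rule the text names all members, every list gene called, Rcan2, Myoz1 and Gsk3b, and the 5 genes most like Nfatc2, Nfatc1 and Rcan1.

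Correlations used 1 probe set per gene and quantile-normalized values, unless another scaling is named, in Python 3.11.15. Permutation was exact, save over all 10 HSALR samples, where 100000 random resamples were drawn. The fit was tested on simulated data of HSALR against wild type with 50 changed probe sets per fold: 35 of 1.5-fold and 48 of 2-fold were found, and 10 unchanged ones were called. The simulated noise was independent between probe sets and held no differences in scale between arrays. These rates therefore need not hold for the real arrays. Alternatives were other pseudocounts (1 and 64), filters, scalings, variance models, array weights, the 3'/5' ratio of control probe sets, the sample number as a block and samples left out. Same-numbered samples of the groups correlated by -0.24 to 0.13, with 3 of 9 over 0.1. Of the HSALR samples 3 correlated best with the wild-type sample of their own number. Whether sample numbers pair the groups was not tested.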

Additional observations from a re-analysis of the deposited data

Results flagged for a closer look

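At 1439328_at of Nfat5, HSALR replicate 8 stood far from the other samples of its group, at 222.1 against 110.4 to 151.3 in the other 9 HSALR samples. Without it the log2 fold of this probe set was -0.02, against 0.05 with all samples. Replicate 8 also had the highest median log2 signal over tested probe sets, 7.96, and its part in this value was not tested. In all, 52 groups of member signals were examined in this way, and chance marks about 1 in 20.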

How the results depend on the processing

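The 3 Nfatc2 calls and the Dyrk2 call were kept in every alternative run on those probe sets. The count of member probe sets higher was 3 in the other settings, 4 with array weights (with Nfatc4 1454369_a_at), 4 with the 3'/5' ratio in the fit (with Ppp3cb 1433835_at), 1 among the 11260 brightest probe sets, where dimmer probe sets were not tested, and 3 to 4 without 1 sample. The count lower, 2 as deposited, was 4 after quantile normalization, 4 when each array was centred on its median, 3 among the 11260 brightest, 3 after quantile normalization without HSALR replicates 9 and 10, 1 with array weights, and 0 with no filter, without HSALR replicates 9 and 10 and with the replicate block, in which HSALR replicate 10 was left out. It was 0 to 3 without 1 sample, and 0 without HSALR replicate 9 or wild-type replicate 6, 7, 8 or 9. For pathway genes the count higher, 0 as deposited, was 2 after quantile normalization, with and without HSALR replicates 9 and 10, 2 with arrays centred on their median and with array weights, 1 among the 11260 brightest, with a trended robust variance model and with the 3'/5' ratio, and 0 to 2 without 1 sample (2 without HSALR replicate 5 and 1 without HSALR replicate 7). Their count lower, 1 as deposited, was 4 after quantile normalization, 3 when HSALR replicates 9 and 10 were also left out, 3 with arrays centred on their median, and 1 to 1 without 1 sample. Relations with marker means that passed numbered 0. With the scaling as deposited, over all 10 HSALR samples, 1 passed by Pearson's r, that of Nfatc4 with the macrophage markers (r 0.94, permutation adjusted p = 0.0277; rho 0.78, adjusted p = 0.166), and 1 by Spearman's rho, that of Nfat5 with the same markers (rho 0.92, permutation adjusted p = 0.0194; r 0.68, adjusted p = 0.367). Without HSALR replicates 9 and 10 the r were 0.75 and 0.47. The cause of these shifts was not tested. With the sample number as a replicate block the log2 fold of Nfatc2 1426032_at was 1.01 (limma adjusted p = 0.00019), and 3 HSALR samples correlated best with their own number.

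Over all probe sets, 645 were higher and 495 lower as deposited, 1484 and 1856 after quantile normalization, 1364 and 1573 by centring each array, 409 and 307 with the replicate block, 2278 and 600 with array weights, 1705 and 464 with the 3'/5' ratio, 1562 and 505 without HSALR replicate 5, and 429 and 400 without HSALR replicates 9 and 10.

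Folds near 0 changed sign. After quantile normalization they were -0.016 at Nfatc1 1447085_s_at, -0.0029 and -0.016 at Ppp3ca 1438478_a_at and 1452056_s_at, -0.023 at Ppp3r1 1421786_at and -0.0047 at Rcan2. With arrays centred on their median they were -0.0239, -0.0033, -0.0169, -0.0270 and -0.0073 at these, and -0.0025 at Nfat5 1439328_at. Without HSALR replicates 9 and 10 they were -0.013 at Nfatc1 1417621_at, -0.092 at Nfatc1 1447085_s_at, -0.015 at Nfat5 1438999_a_at and -0.0159 and -0.0203 at both Ppp3ca probe sets, and with quantile normalization as well -0.009, -0.1, -0.021, -0.022 and -0.021. With the replicate block Nfatc1 1447085_s_at was -0.0193. Nfatc3 1419976_s_at was 0.028 with array weights and 0.016 with the 3'/5' ratio. Without 1 sample, Nfatc1 1447085_s_at ran from -0.098 to 0.12, Nfatc3 1419976_s_at from -0.0495 to 0.0182, Nfat5 1439328_at from -0.021 to 0.10 and Ppp3r1 1421786_at from -0.022 to 0.067. With all samples each of these folds was smaller than its SE.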
